A study of Homo sapiens with 6 samples.

Results

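The genes described here are 52 ribosome biogenesis factors, chosen as a list of symbols that covers the small-subunit processome, the proteins of box C/D and H/ACA ribonucleoproteins, 60S assembly factors and RNA polymerase I factors. All 52 were found among the 58884 gene IDs of each deposited table. They were measured by total RNA-seq after depletion of ribosomal RNA in HCT116, an established line of human colorectal cancer cells. The cells had received either a non-targeting control siRNA (siCTRL) or a siRNA pool directed against Matrin3 (siMatrin3), an RNA-binding protein of the nuclear matrix, 48 h before. There were 3 libraries in each group, described in the study's methods as biological triplicates, all from 1 line and with 1 pool of siRNAs, so an effect of Matrin3 loss and another effect of the pool cannot be told apart. The study's methods name a directional kit with ribosomal RNA depletion, whereas the sample labels name a stranded mRNA kit. The list was selected on gene symbols, with the log2 fold changes of siMatrin3 against siCTRL from an earlier analysis of these libraries already known, so the comparison of siMatrin3 with siCTRL is given below as a description of these genes and not as a test of the list.

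Ribosomes are built in the nucleolus, where RNA polymerase I transcribes a long precursor rRNA. The precursor is bound as it is made by the small-subunit (SSU) processome, a large assembly of U3 proteins (UTPs) and the U3 small nucleolar ribonucleoprotein, which folds and cuts the part that becomes the 40S subunit. Box C/D and H/ACA ribonucleoproteins use small nucleolar RNAs (snoRNAs) as guides to methylate rRNA and to turn uridine into pseudouridine, and other factors assemble the 60S subunit. The pathway runs at a high rate in proliferating cancer cells, and many of its genes are known targets of the transcription factor MYC, which binds the E-box CACGTG.

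The library totals ranged from 4556658 to 8400412 estimated counts. MATR3 was at 363, 343 and 330.2 CPM (counts scaled to a common library size by TMM normalization) in siCTRL and at 72.4, 67.9 and 71.4 CPM in siMatrin3, a log2 fold change of -2.29 ± 0.06 (SE; edgeR quasi-likelihood test, Benjamini-Hochberg adjusted p = 7.58e-11). The groups were apart on the first principal component, which carried 33.2% of the variance. Of 7 epithelial markers 6 were high enough to test. EPCAM and KRT19 rose, with log2 fold changes of 0.28 and 0.23, CLDN4 had one of -0.15 (adjusted p = 0.299), and DESeq2 called 3 of the 6 higher. The summed level of the list was 1631 to 1796 CPM in siCTRL and 1851 to 1958 CPM in siMatrin3. Its part in the results below was not tested. Among markers of other cells, 2 of 7 for fibroblasts, 1 of 7 for blood and 3 of 6 for neural cells could be tested, 4, 2 and 0 were at 0 in every library, and 0 of them passed by edgeR or DESeq2 or had an unadjusted edgeR p under 0.05. The summed levels were 20.3 to 21.6 CPM in siCTRL and 19.3 to 23.2 CPM in siMatrin3 for fibroblast markers, 0 to 2.47 and 1.04 to 4.25 CPM for blood markers, and 68.7 to 71.1 and 62.4 to 73.6 CPM for neural markers.

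The sequence around the start site is shown first, because it is a feature that the choice of the genes did not use. RefSeq windows on GRCh38.p14, from 250 bases before to 50 bases after a start site of a gene, were at hand for 44 of the 52 genes, and not for BOP1, NOP58, NOLC1, TCOF1, DDX18, RRP12, RRP1B and DDX52. For some genes, such as PES1, UTP4 and NCL, this start site lies inside the gene span given below. Any other start sites of a gene were not searched. The E-box CACGTG, which reads the same on both strands, was in the windows of 17 of the 44 genes (38.6%). It was in 7.44% of all 27305 windows and in 10.1% of the 10318 windows of genes high enough to test. The 17 genes held 19 E-boxes. Of these, 16 (84.2%) began within 50 bases of the start site, each in a different gene, and 12 began after it. In all windows, 36.6% of the 2255 E-boxes began within 50 bases. This share was not counted for the windows of genes high enough to test. The last 50 bases before and the first 50 bases after the start site are printed for 6 genes with an E-box there, in capitals, and for HEATR1 and RRN3, which had the largest rise and the largest fall among the 52 genes and no E-box in their windows:
WDR43 (chr2:28894617-28894716, plus strand): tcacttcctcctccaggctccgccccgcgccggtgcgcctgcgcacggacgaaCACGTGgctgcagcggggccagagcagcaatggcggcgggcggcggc
UTP4 (chr16:69132599-69132698, plus strand): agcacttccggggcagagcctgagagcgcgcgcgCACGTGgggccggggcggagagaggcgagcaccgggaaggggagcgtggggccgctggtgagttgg
NOP14 (chr4:2963357-2963456, minus strand): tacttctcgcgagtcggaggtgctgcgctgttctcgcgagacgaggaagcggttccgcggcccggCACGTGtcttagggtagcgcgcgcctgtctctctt
FBL (chr19:39846330-39846429, minus strand): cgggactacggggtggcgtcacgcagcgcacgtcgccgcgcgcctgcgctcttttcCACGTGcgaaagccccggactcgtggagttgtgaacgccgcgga
PES1 (chr22:30591861-30591960, minus strand): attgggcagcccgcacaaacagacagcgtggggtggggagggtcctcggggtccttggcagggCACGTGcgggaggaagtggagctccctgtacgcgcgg
NOP2 (chr12:6568242-6568341, minus strand): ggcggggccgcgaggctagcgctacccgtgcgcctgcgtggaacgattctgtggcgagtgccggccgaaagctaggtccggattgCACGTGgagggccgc
HEATR1 (chr1:236604467-236604566, minus strand): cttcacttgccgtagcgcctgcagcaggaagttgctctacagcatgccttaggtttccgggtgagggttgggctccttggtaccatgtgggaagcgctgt
RRN3 (chr16:15094286-15094385, minus strand): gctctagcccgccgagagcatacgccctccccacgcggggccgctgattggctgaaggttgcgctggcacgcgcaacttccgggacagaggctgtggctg

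The other 3 motifs were counted on both strands in the same windows. CTCGCGA was in 7 windows (15.9%), including those of NCL, NPM1 and NOP14, against 2.35% of all windows and 4.51% of the windows of genes high enough to test. ACTTCCG was in 12 windows (27.3%), including those of UTP4 and RRN3, against 7.23% and 13.9%. GCATGCG was in 3 windows (6.82%), those of DDX10, DKC1 and UTP18, against 4.13% and 6.54%. The window of HEATR1 held none of the 4 motifs. These are matches of letters and not measurements of binding.

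**Figure D1:**
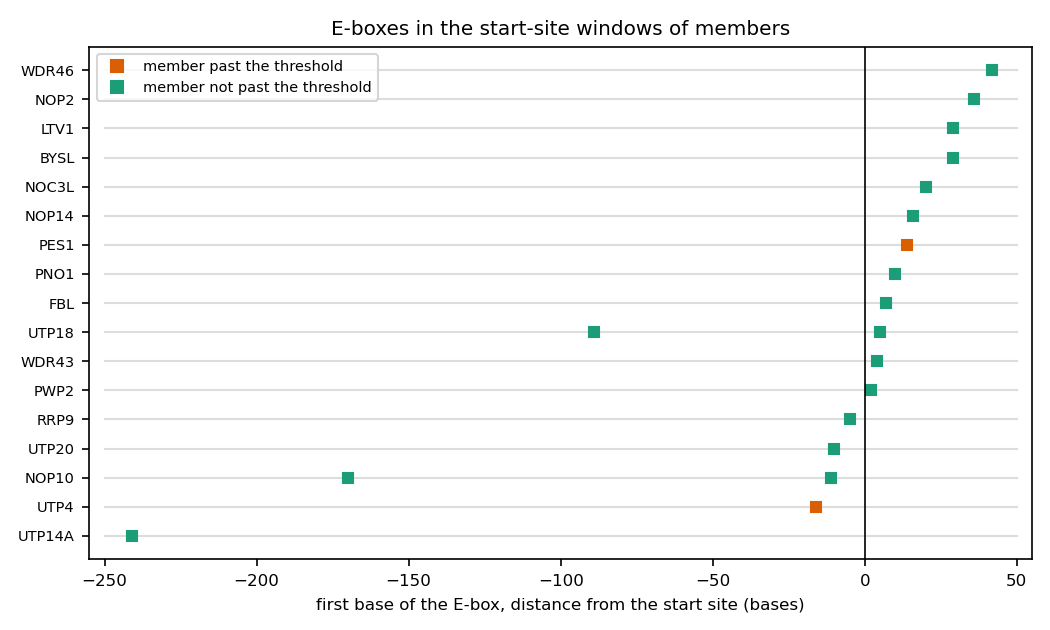
E-boxes in the windows of the 17 genes that hold one, by the distance of the first base of CACGTG from the start site in bases (grey line, the window searched; square, an E-box). All genes except UTP14A have an E-box within 50 bases of the start site, and UTP18 and NOP10 have another farther upstream.

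All 52 genes were high enough to test, with 126 to 11179 counts per gene and library. Levels were compared between genes per length, in the deposited TPM (reads per length, scaled within each library). The nucleolar phosphoproteins NPM1 (1004 ± 34.2 TPM, SD, n = 3) and NCL (933 ± 71.8 TPM) were the highest in siCTRL and overlapped each other, and UTP20 was the lowest (14.2 ± 0.849 TPM). Among the box C/D proteins, the methyltransferase FBL (231 ± 9.23 TPM) and NOP56 (224 ± 9.37 TPM) overlapped, and NOP58, the partner of NOP56, was below both at 82.5 ± 8.78 TPM. Among the H/ACA proteins, NOP10 (105.7 ± 8.36 TPM) and NHP2 (94.3 ± 2.5 TPM) overlapped, the pseudouridine synthase DKC1 (72.6 ± 3.02 TPM) was below them, and GAR1 (44.1 ± 4.84 TPM) was below DKC1. The genes for proteins that share a complex were thus not at equal RNA levels: in siCTRL the ratio of NOP56 to NOP58 was 2.73 ± 0.322 and that of DKC1 to NOP10 was 0.691 ± 0.0836.

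**Figure D2:**
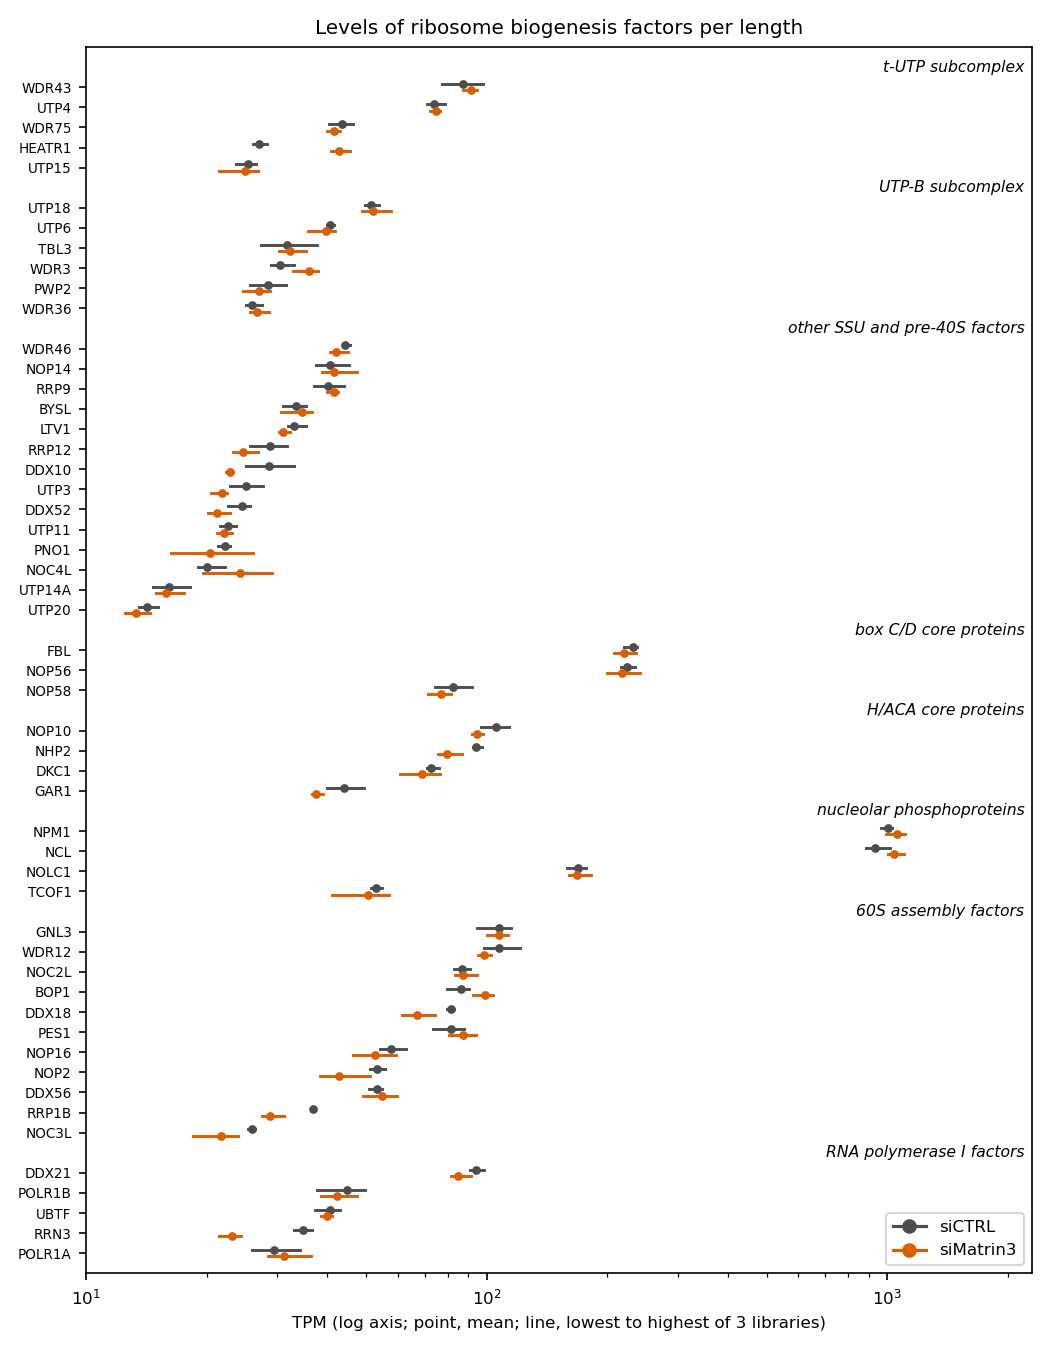
Levels of the 52 genes in TPM on a log axis, ordered within each role by the mean in siCTRL (point, mean; line, lowest to highest of 3 libraries). NPM1 and NCL lie near 1000 TPM in both groups, HEATR1 is the member whose siMatrin3 range lies farthest above its siCTRL range, and RRN3 lies below it.

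In siMatrin3, 7 of the 52 genes were higher and 2 were lower by the edgeR test (adjusted p under 0.05 over all 14334 genes tested), and 43 did not pass. Over all genes tested, 814 (5.68%) were higher and 743 (5.18%) were lower, 10.9% in either direction. The genes that passed were HEATR1, PES1, BOP1, NCL, UTP4, NPM1 and TBL3, which rose, and RRN3 and RRP1B, which fell. The median log2 fold change of the 52 genes was 0.07, against -0.0006 over all genes tested and 0.0046 over protein-coding genes. In all, 37 of the 52 log2 fold changes were above 0 and 23 were under 0.1 in size. The 3 siMatrin3 libraries lay above all siCTRL libraries in CPM for 14 genes and below them for 5 genes, where 15% and 14.7% of all genes tested did so. Because the genes were chosen with this contrast known, nothing is read from these counts. The summed level of the 52 genes was 8749, 8652 and 8213 CPM in siCTRL and 9642, 9172 and 9135 CPM in siMatrin3, so the groups did not overlap. Without NCL, NPM1 and HEATR1 the sum was 6072, 5990 and 5789 CPM in siCTRL and 6445, 6019 and 6070 CPM in siMatrin3, and the share of the deposited counts held by all 52 was 0.850% to 0.890% and 0.877% to 0.948%, both of which overlap. In bulk RNA of a culture, fewer cells that express a gene and less RNA per cell cannot be told apart.

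These calls depended on the fit and the unit. RSEM estimates an effective length for each gene, a mean over its isoforms weighted by their estimated abundance, and TPM divides by it. With effective lengths as an offset in edgeR, or with limma-trend on log2(TPM + 1) or log2(TPM + 0.1), HEATR1 rose and RRN3 fell and none of the other 50 genes passed. With the offset 99 and 105 of all genes were higher and lower, against 814 and 743 without it. The log2 fold changes of NCL, BOP1, NPM1 and RRP1B were then 0.26, 0.30, 0.18 and -0.25, near those given below. Those of PES1, UTP4 and TBL3 were smaller than below, at 0.21, 0.12 and 0.14. Why these calls were lost was not tested. On the log2(TPM + 0.1) scale the median of all genes lay at -0.10 and that of the 52 genes at -0.06, so the rises and falls in CPM given below are relative to a centre that differs between units. In TPM all siMatrin3 libraries lay above all siCTRL libraries for HEATR1 and BOP1. They lay below them for UTP3, DDX10, NHP2, GAR1, NOP2, NOC3L, DDX18, RRP1B and RRN3. The share of all genes tested that did so in TPM was not counted, so nothing about the list is read from these genes.

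**Figure D3:**
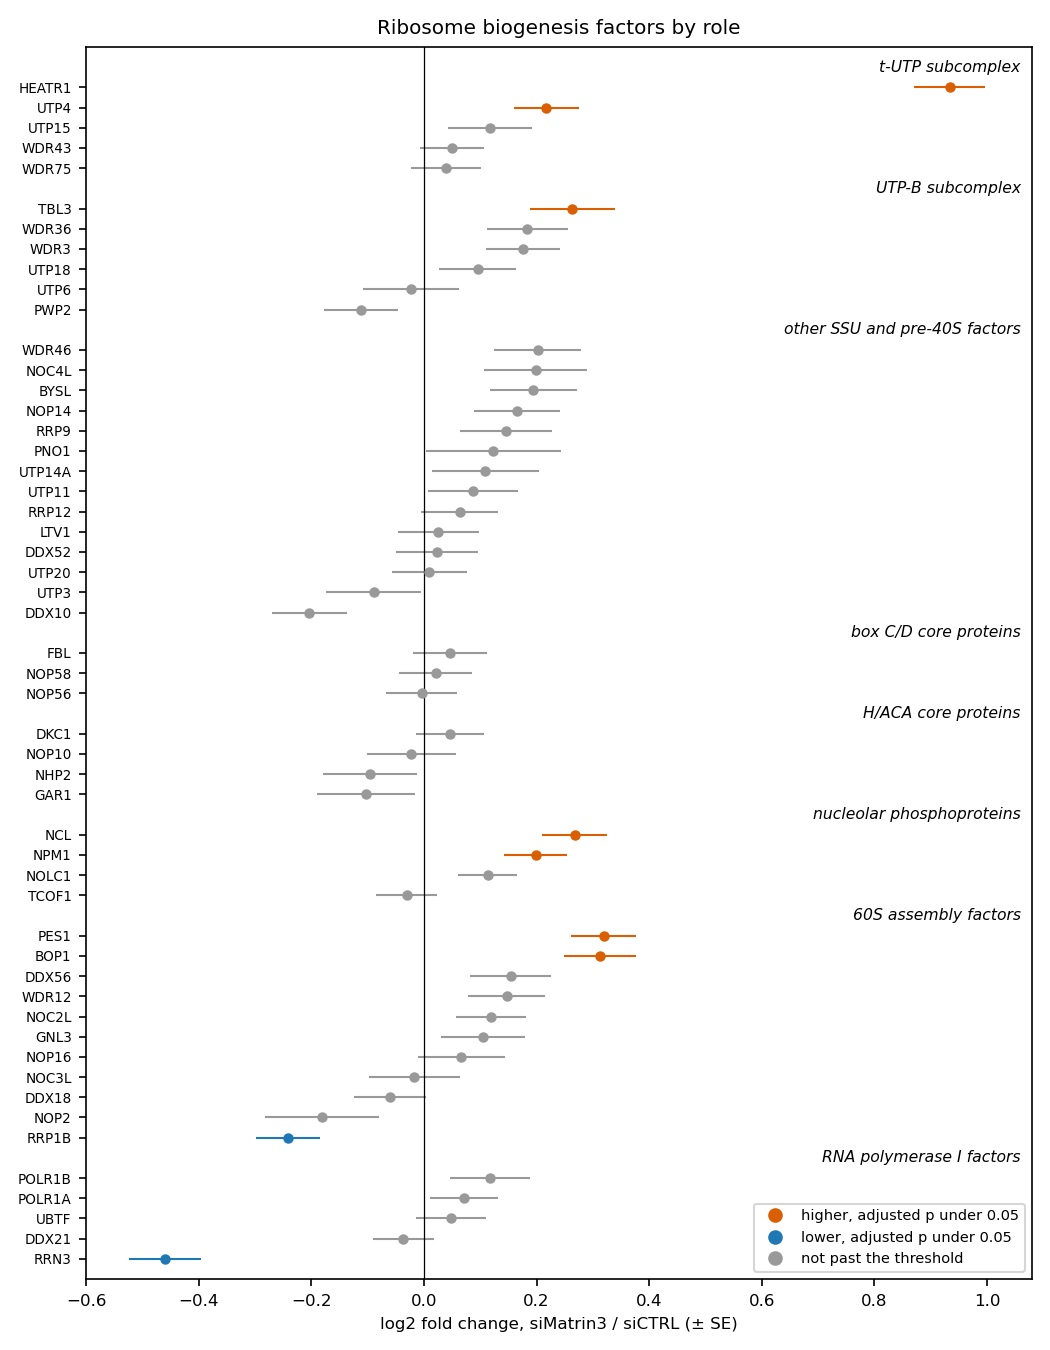
Log2 fold changes of the 52 genes, siMatrin3 over siCTRL, with the SE of the edgeR fit, by role (orange and blue, past the threshold; grey, not past it). HEATR1 lies at 0.93 and RRN3 at -0.46, and the other 50 genes lie between -0.24 and 0.32.

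The t-UTP subcomplex binds the precursor rRNA first and is also needed for its transcription. HEATR1, its large scaffold subunit (ENSG00000119285, hg38 chr1:236549005-236604516, minus strand, 45 merged exons), was at 138, 136 and 118 CPM in siCTRL and at 253, 246 and 251 CPM in siMatrin3. All siMatrin3 libraries were above all siCTRL libraries, and the mean rose 1.91-fold, from 131 ± 10.9 to 249.8 ± 3.41 CPM (SD, n = 3; log2 fold change 0.93 ± 0.06, SE; edgeR adjusted p = 3.90e-06). It passed under all 17 alternatives, with log2 fold changes from 0.64 to 0.97. In TPM it went from 28.2, 26.9 and 26.1 to 45.7, 41.6 and 40.8. The other t-UTP genes of the list did not move with it to this extent: within each library, HEATR1 stood at 0.489, 0.453 and 0.471 of the mean TPM of UTP4, UTP15, WDR43 and WDR75 in siCTRL and at 0.765, 0.699 and 0.739 in siMatrin3.

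HEATR1 overlaps LGALS8 on the other strand, and LGALS8 had a log2 fold change of -0.10 (edgeR adjusted p = 0.669). On its own strand it overlaps an unnamed gene, ENSG00000230325, which had 2.19 to 6.14 estimated counts in a library and was too low to test. The effective length of HEATR1 was 5034, 5088 and 4725 bases in siCTRL and 5365, 5592 and 5725 bases in siMatrin3. The groups did not overlap, but the difference did not pass limma's test over 12260 genes (log2 difference 0.17, adjusted p = 0.493), which called 0 of those genes (0%). At an unadjusted p under 0.05 it took 7 of the 49 genes of the list whose effective length varied, with a lowest adjusted p of 0.470 for WDR3, and 6.87% of the 12260.

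UTP4, a beta-propeller protein of the same subcomplex (hg38 chr16:69131291-69231130, plus strand), was at 123, 118 and 128 CPM in siCTRL and at 141, 143 and 146 CPM in siMatrin3. The groups did not overlap, and the log2 fold change was 0.22 ± 0.06 (edgeR adjusted p = 0.0275). In TPM the groups overlapped, and the call was lost in 10 of 17 alternatives, among them DESeq2 and the removal of any 1 library, where the log2 fold change stayed between 0.19 and 0.25. UTP4 overlaps SNTB2 on its own strand, so reads may have been shared between them by estimate. SNTB2 had a mean of 86.8 CPM in siCTRL and 92.1 CPM in siMatrin3 (log2 fold change 0.08, edgeR adjusted p = 0.524). WDR43, the highest of the subcomplex in siCTRL, was at 196, 185 and 179.6 CPM in siCTRL and at 199.7, 194 and 186 CPM in siMatrin3, and the groups overlapped (log2 fold change 0.05 ± 0.06). UTP15 and WDR75 had log2 fold changes of 0.12 and 0.04 and did not pass.

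**Figure D4:**
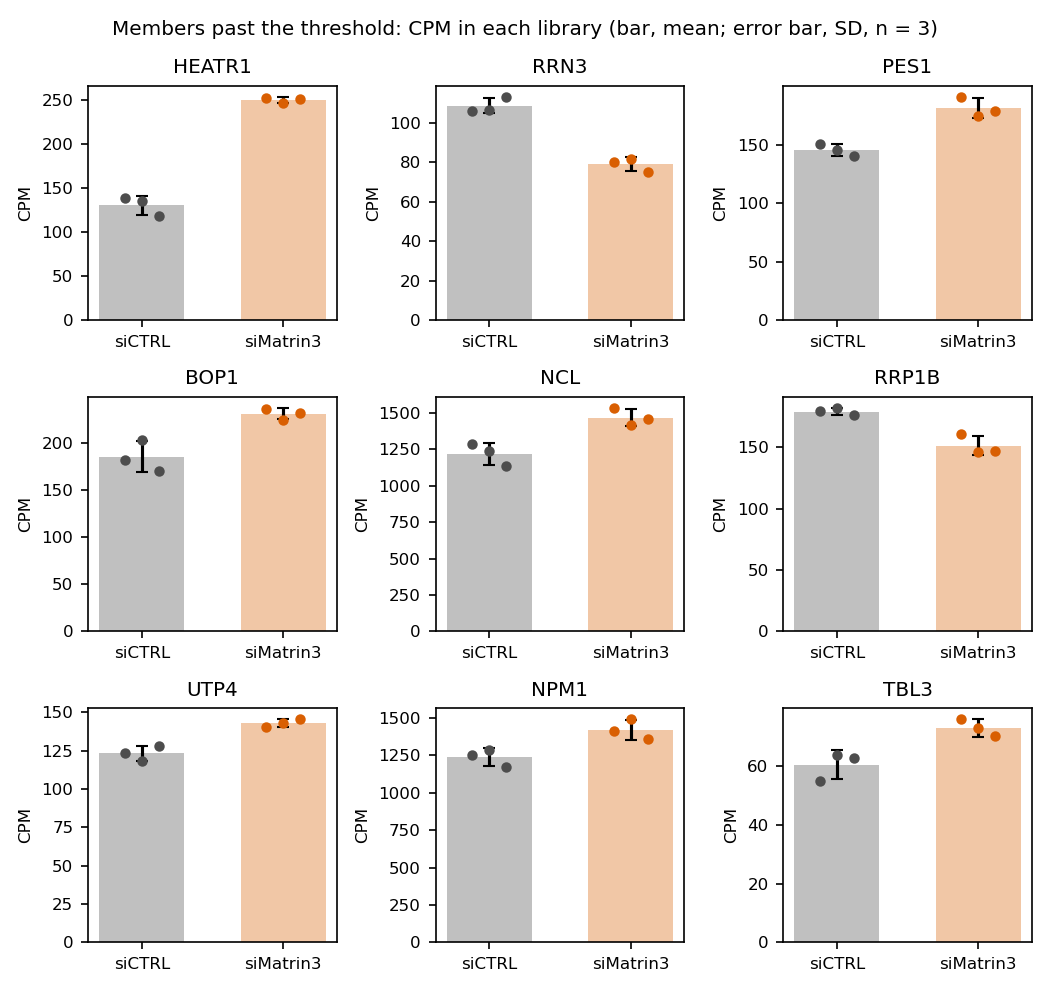
CPM of the 9 genes past the threshold in each library (points), with the mean (bar) and SD (error bar, n = 3) of each group, on axes that start at 0. The 2 groups do not overlap in any of the 9 genes, and HEATR1 has the largest fold difference, at 1.91-fold.

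The UTP-B subcomplex forms the backbone of the processome and binds the 5′ end of the precursor with U3. TBL3 was the only one of its 6 genes to pass. It was at 54.8, 63.8 and 62.5 CPM in siCTRL and at 75.9, 72.8 and 70.02 CPM in siMatrin3, all above the siCTRL values (log2 fold change 0.26 ± 0.08, edgeR adjusted p = 0.0405). The effective length of TBL3 ranged from 1493 to 2360 bases in siCTRL, its TPM overlapped between the groups, and the call was lost in 10 of 17 alternatives, including DESeq2 and the removal of any 1 library. UTP18, the highest of the subcomplex, was at 87.2, 87.9 and 88.2 CPM in siCTRL and at 101.5, 89.5 and 89.8 CPM in siMatrin3, with a log2 fold change of 0.10 ± 0.07. WDR36, another beta-propeller protein, had a log2 fold change of 0.18 (adjusted p = 0.123) and passed only when the replicate number was a block (adjusted p = 0.0353). That fit called 8.39% of all genes higher and 7.37% lower, and 8 and 3 of the 52. WDR3, UTP6 and PWP2 had log2 fold changes of 0.18, -0.02 and -0.11.

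The 14 other SSU processome and pre-40S factors did not pass in either direction by edgeR or DESeq2, and 5 had an unadjusted edgeR p under 0.05, as 25.1% of all genes tested did. Their log2 fold changes ran from -0.20 to 0.20 with a median of 0.10, and 12 of the 14 were above 0. The lowest p was that of DDX10, a DEAD-box helicase. It was at 81.6, 76.3 and 80.5 CPM in siCTRL and at 71.1, 68.4 and 66.8 CPM in siMatrin3, all below the siCTRL values (log2 fold change -0.20 ± 0.07, edgeR adjusted p = 0.0684). In the fit with the replicate block its adjusted p was 0.0392. WDR46, a scaffold of the processome and the highest of the 14 in TPM, was at 70.8, 68.6 and 60.6 CPM in siCTRL and at 81.6, 73.5 and 74.6 CPM in siMatrin3 (log2 fold change 0.20 ± 0.08, adjusted p = 0.118). BYSL, NOC4L and UTP11 also had all siMatrin3 libraries above all siCTRL libraries without passing. PNO1, LTV1 and RRP12, which act on late pre-40S particles, had log2 fold changes of 0.12, 0.03 and 0.06.

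Of the 7 core genes of the snoRNA particles in the list of 52, 0 passed by edgeR or DESeq2. Of these 7, 0 had an unadjusted edgeR p under 0.05, against 25.1% of all genes tested. SNU13, another box C/D protein, was counted with the assembly factors given below. It was higher by edgeR (log2 fold change 0.20, adjusted p = 0.0485) and did not pass in DESeq2. FBL was at 190.1, 199.3 and 170.1 CPM in siCTRL and at 203, 189 and 186 CPM in siMatrin3, with a log2 fold change of 0.05 ± 0.07. NOP56 and NOP58 had log2 fold changes of -0.0039 and 0.02. Of the H/ACA genes, NOP10 was at 46.2, 51.6 and 51.6 CPM in siCTRL and at 46.9, 52.2 and 48.97 CPM in siMatrin3. GAR1 was at 44.2, 37.6 and 38.04 CPM in siCTRL and at 37.6, 36.2 and 36.8 CPM in siMatrin3, just below the siCTRL values (log2 fold change -0.10 ± 0.09, edgeR adjusted p = 0.509). The TPM ratios of NOP56 to NOP58, FBL to NOP56, DKC1 to NOP10 and GAR1 to NOP10 each overlapped between the groups.

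Nucleolin (NCL) and nucleophosmin (NPM1) are abundant nucleolar proteins that bind rRNA and assembling subunits. NCL (hg38 chr2:231453531-231483641, minus strand) was at 1287, 1238 and 1136 CPM in siCTRL and at 1533, 1416 and 1457 CPM in siMatrin3, without overlap (log2 fold change 0.27 ± 0.06, edgeR adjusted p = 0.0102). NPM1 (hg38 chr5:171387116-171411810, plus strand) was at 1252, 1288 and 1171 CPM in siCTRL and at 1411, 1491 and 1357 CPM in siMatrin3, also without overlap (log2 fold change 0.20 ± 0.06, adjusted p = 0.0365). The means rose 1.204-fold and 1.15-fold, and in TPM the groups overlapped for each. The call of NCL was lost without siCTRL replicate 3 (log2 fold change 0.22), and that of NPM1 was lost without any 1 of 5 libraries, all but siCTRL replicate 2. NPM1 has 49 named pseudogenes in the tables, to which 0.929% to 1.32% of the summed counts were assigned, and reads may have been divided among the copies by estimate. NOLC1 and TCOF1, which bind snoRNA particles and RNA polymerase I, had log2 fold changes of 0.11 (adjusted p = 0.198) and -0.03.

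PES1 and BOP1 form the PeBoW complex with WDR12, which is needed to process the rRNAs of the 60S subunit. PES1 (hg38 chr22:30576625-30607083, minus strand) was at 151, 146 and 140.2 CPM in siCTRL and at 190.4, 175 and 179 CPM in siMatrin3 (log2 fold change 0.32 ± 0.06, edgeR adjusted p = 0.00379). BOP1 was at 183, 204 and 171 CPM in siCTRL and at 237, 225 and 232 CPM in siMatrin3 (log2 fold change 0.31 ± 0.06, adjusted p = 0.00831). WDR12 was at 81.6, 73.2 and 72.9 CPM in siCTRL and at 83.1, 85.3 and 82.8 CPM in siMatrin3, which was not past the threshold (log2 fold change 0.15 ± 0.07, adjusted p = 0.198). All siMatrin3 libraries were above all siCTRL libraries in each of the 3 genes. In TPM, the ratio of PES1 to WDR12 went from 0.760 ± 0.0414 to 0.883 ± 0.0680 and that of BOP1 to WDR12 from 0.810 ± 0.0978 to 1.005 ± 0.0481 without overlap, whereas the ratio of PES1 to BOP1 overlapped. The mean effective length of WDR12 was 729 bases in siCTRL and 806 bases in siMatrin3, and in CPM the ratio of PES1 to WDR12 again did not overlap, whereas that of BOP1 to WDR12 did, at 2.24, 2.78 and 2.35 in siCTRL and 2.85, 2.64 and 2.80 in siMatrin3. The call of BOP1 was lost without siCTRL replicate 3 (log2 fold change 0.26).

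RRP1B, a nucleolar protein that brings protein phosphatase 1 to 60S precursors, moved the other way (hg38 chr21:43659560-43696079, plus strand). It was at 179.5, 182 and 176 CPM in siCTRL and at 160.5, 146 and 147 CPM in siMatrin3, all below the siCTRL values, and fell by 15.4% (log2 fold change -0.24 ± 0.06, edgeR adjusted p = 0.0163). In TPM it went from 36.8, 36.7 and 36.7 to 31.1, 27.7 and 27.4, without overlap. The call was lost without siCTRL replicate 2 or 3 or siMatrin3 replicate 2 or 3, with log2 fold changes from -0.25 to -0.22. GNL3, or nucleostemin, which had the highest mean of the 60S factors in siCTRL TPM and overlapped WDR12 there, was at 172, 185 and 148 CPM in siCTRL and at 181, 190.5 and 175 CPM in siMatrin3, and the groups overlapped. NOP2, an rRNA methyltransferase, had a log2 fold change of -0.18 (adjusted p = 0.295) and passed without siMatrin3 replicate 1 (-0.34, adjusted p = 0.0257). NOP2 overlaps an unnamed gene on its own strand, ENSG00000285238, whose mean was 9.64 CPM in siCTRL and 23.4 CPM in siMatrin3 (adjusted p = 0.162), so reads may have been shared between them by estimate. DDX56, NOC2L, NOP16, NOC3L and DDX18 had log2 fold changes from -0.06 to 0.15 and did not pass.

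RRN3, also known as TIF-IA, joins RNA polymerase I to the promoter factors of the rRNA genes, and was the member that fell most (ENSG00000085721, hg38 chr16:15060033-15094311, minus strand, 19 merged exons). It was at 106, 107 and 113 CPM in siCTRL and at 80.1, 81.7 and 74.9 CPM in siMatrin3. All siMatrin3 libraries were below all siCTRL libraries, and the mean fell by 27.3%, from 108 ± 3.83 to 78.9 ± 3.56 CPM (SD, n = 3; log2 fold change -0.46 ± 0.06, edgeR adjusted p = 0.000728). It passed under all 17 alternatives, with log2 fold changes from -0.59 to -0.43. Of the subunits of the enzyme that it recruits, POLR1A, the largest, and POLR1B, the next in size, did not pass. Their log2 fold changes were 0.07 and 0.12. The subunits POLR1G and POLR2K, which are outside the list and given below, passed in edgeR. POLR1G rose (log2 fold change 0.62) and POLR2K, which other RNA polymerases share, fell (-0.67). Within each library the TPM of RRN3 was 0.826, 0.876 and 1.15 of the mean of POLR1A and POLR1B in siCTRL and 0.628, 0.704 and 0.564 in siMatrin3, without overlap. UBTF, which opens the rRNA gene promoter, had a log2 fold change of 0.05. DDX21, a helicase at the rRNA genes and the highest of this group in TPM, was at 443, 415 and 412 CPM in siCTRL and at 436, 397 and 404 CPM in siMatrin3.

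The tables also list 3 pseudogenes of RRN3, which share sequence with it. They held 9.49% to 11.7% of the summed counts of RRN3 and its pseudogenes in siCTRL and 12.0% to 14.3% in siMatrin3. In CPM the pseudogenes summed to 11.1, 12.1 and 14.99 in siCTRL and to 13.9, 12.7 and 10.4 in siMatrin3, which overlap. RRN3 and its pseudogenes together were at 117, 119 and 128 CPM in siCTRL and at 94.0, 94.3 and 85.3 CPM in siMatrin3, a log2 ratio of means of -0.41. PDXDC1, which overlaps RRN3 on the other strand, had a log2 fold change of 0.11 (edgeR adjusted p = 0.297).

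Short matches in the 3′ UTRs of these genes were also listed. Earlier results of these data singled out GAAGACT and AAGACTA as frequent in the 3′ UTRs of genes that fell and ATTACAA and TTACAAA in those of genes that rose, so the shares over changed genes describe that choice. GAAGACT or AAGACTA, on the sense strand, was in 39.9% of 682 genes that were lower, in 14.5% of 772 that were higher and in 18.4% of all 12106 genes searched. It was in 7 of the 52 genes (13.5%), among them both RRN3 and RRP1B and none of the 7 that rose. The 3′ UTR searched had 1711 bases in RRN3 and 2696 in RRP1B. In the 7 that rose it had 84 (UTP4), 119 (BOP1), 335 (NPM1), 421 (PES1), 1660 (NCL), 1897 (HEATR1) and 4244 (TBL3). None of the shares given here was adjusted for this length. ATTACAA or TTACAAA was in 41.1% of the genes that were higher, in 33.1% of those that were lower and in 25.8% of all genes searched. It was in 8 of the 52 genes (15.4%), among them HEATR1, the only one of the 7 that rose to hold it, and RRP1B, which fell. The other 5 carriers of GAAGACT or AAGACTA, WDR3, WDR36, WDR12, POLR1B and NHP2, had log2 fold changes from -0.10 to 0.18 and did not pass. The sites of the genes that moved most and of RRP1B are printed from GENCODE release 44 with 11 bases on each side, the 7 bases in capitals and the position of their first base in the 3′ UTR:
HEATR1, base 117: acttggattacTTACAAAtgttttatcac
HEATR1, base 139: ttatcacttctTTACAAAatccccacctg
RRN3, base 158: atcaagcatctGAAGACTgggtttttttg
RRN3, base 204: acagacaaaatGAAGACTatcatgtgcaa
RRP1B, base 985: cctgtaagttcATTACAAacacgggcgga
RRP1B, base 2486: gaaagcacaaaGAAGACTacacagaaaat

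The second site of RRN3 and the site of RRP1B at base 2486 each hold GAAGACT and AAGACTA in overlap, and the site of RRP1B at base 985 holds ATTACAA and TTACAAA in overlap. Whether these matches bear on the levels was not tested.

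Another 156 genes that are not in the list of 52 were gathered in 6 lists, and 155 of them were high enough to test. They are called the other pathway genes below and include 11 genes of the MYC network, which are not biogenesis factors. Of these 11, 10 were tested, and 2 were higher and 0 lower by the edgeR test. In the same test 16 of the 155 were higher and 4 were lower, beside 5.68% and 5.18% of all genes tested. The other 135 did not pass, and the median log2 fold change of the 155 was 0.09. DESeq2 called 13 of the 20 that passed, and not MLX, DDX49, RIOK3, DDX24, DDX54, TTF1 or SNU13. With effective lengths as an offset MYC and POLR2K were the only ones of the 20 that passed. Of 38 other 40S factors 5 were higher and 1 was lower. NOP9 went from 60.2, 61.0 and 50.02 CPM in siCTRL to 78.05, 78.2 and 78.9 CPM in siMatrin3 (log2 fold change 0.45 ± 0.08, adjusted p = 0.00321) and the acetyltransferase NAT10 had a log2 fold change of 0.32 (adjusted p = 0.00412). FCF1, NOL10 and DDX49 also rose, and the kinase RIOK3 fell (log2 fold change -0.39). Of 52 other 60S factors 6 were higher and 1 was lower. NOL9, the kinase that acts on the cut precursor, went from 86.7, 76.8 and 71.3 to 119, 113 and 119.6 CPM (log2 fold change 0.59 ± 0.07, adjusted p = 0.000317). Its TPM overlapped, at 26.7, 21.8 and 22.8 in siCTRL and 26.5, 24.3 and 28.3 in siMatrin3, while its mean effective length was 3384 and 4229 bases. PA2G4 fell from 344, 349 and 301 to 268, 258 and 247 CPM (-0.36 ± 0.06, adjusted p = 0.00289).

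Of 18 other RNA polymerase I factors 2 were higher and 1 was lower. POLR1G, a subunit of the enzyme, went from 36.9, 32.4 and 27.6 CPM in siCTRL to 52.4, 47.2 and 48.03 CPM in siMatrin3 (log2 fold change 0.62 ± 0.10, adjusted p = 0.00183), and the terminator factor TTF1 had a log2 fold change of 0.41 (adjusted p = 0.0355). POLR2K, a small subunit shared by the nuclear RNA polymerases, went from 45.5, 41.1 and 40.3 to 27.2, 25.6 and 26.8 CPM (-0.67 ± 0.09, adjusted p = 0.000437). Of 11 snoRNA particle assembly factors SNU13 was higher (0.20, adjusted p = 0.0485) and NOPCHAP1 was lower (-0.37, adjusted p = 0.0215). Of 26 exosome subunits and rRNA nucleases 0 passed by edgeR or DESeq2 and 3 had an unadjusted edgeR p under 0.05, against the same 25.1% of all genes, and the lowest p values were those of RPP38 (log2 fold change 0.32, adjusted p = 0.110) and EXOSC9 (-0.17, adjusted p = 0.147).

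MYC was at 304, 311 and 296 CPM in siCTRL and at 465, 405 and 429 CPM in siMatrin3, all above the siCTRL values (log2 fold change 0.51 ± 0.06, edgeR adjusted p = 0.000145). MLX also rose (0.29, adjusted p = 0.0353), the other 8 genes of the MYC network that could be tested did not pass, and MYCN was at 0 in every library. Among the 52 genes, 2 of the 17 with an E-box in the window rose, UTP4 and PES1, and 4 of the 27 without one, HEATR1, NCL, NPM1 and TBL3. The median log2 fold change was 0.10 with and 0.09 without an E-box. Over all genes tested with a window, 7.94% of the 1045 with an E-box and 6.02% of the 9273 without one were higher, with median log2 fold changes of 0.03 and -0.0019. Whether MYC bears on these genes was not tested.

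**Figure D5:**
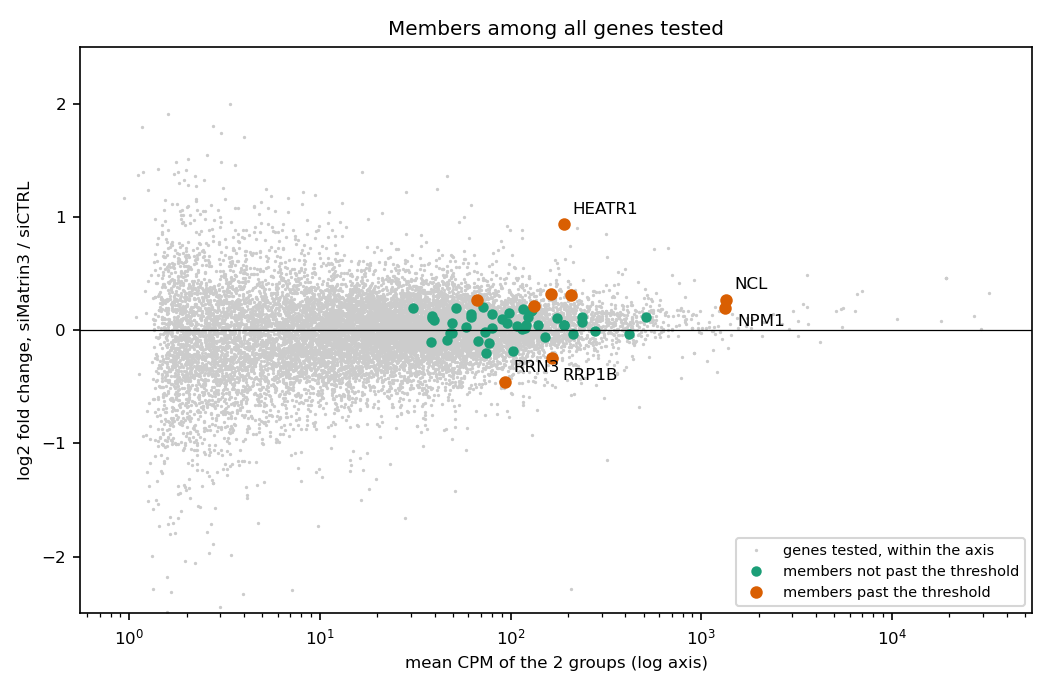
Log2 fold change, siMatrin3 over siCTRL, against the mean CPM of the groups on a log axis, for all genes tested (grey; the axis is limited to a log2 fold change of 2.5 in size), for the 43 genes of the list not past the threshold (green) and for the 9 past it (orange). HEATR1 lies at 0.93, RRN3 at -0.46, and NCL and NPM1 are the most abundant of the 52.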

How the data were processed

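RNA from 6 HCT116 cultures, 3 siCTRL and 3 siMatrin3, was sequenced after ribosomal RNA depletion. Per the labels and the study's methods, the authors used cutadapt, TopHat, the hg19 build and RSEM; for the annotation release and the strand setting, not given in the sources used here, no assumption was made. The deposited tables gave expected counts (estimated reads per gene, not normalized), TPM as scaled by the authors' RSEM runs within each library, and gene and effective lengths in bases. No column of any other series was used (0 columns), and no row without a gene ID was found.

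Expected counts were rounded. Genes passing filterByExpr (minimum count 10, minimum total 15) were scaled by TMM and tested with edgeR 4.0.16 in R 4.3.3 by the quasi-likelihood test, two-sided, with Benjamini-Hochberg adjustment over 14334 genes at 0.05. The common biological coefficient of variation was 6.44%. SE values were obtained from the log2 fold change and the F statistic. Effective lengths were tested with limma 3.58.1 on a log2 scale. With 3 against 3 libraries an exact permutation test gives no p under 0.1, so per-library values carry no such test. The scripts were tested on simulated data.

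The list of 52 genes, the role groups, the other pathway lists, the marker lists and the 3′ UTR words were chosen with earlier results of these data known. The rule for named genes took the genes past the threshold, the highest in siCTRL TPM and the lowest p of each role, MYC, and the 2 lowest p of each other list; further genes complete a group or a small count. Positions were taken by gene ID from GENCODE release 44 on hg38 (58472 of 58884 IDs, 99.3%), since the tables on hg19 hold no coordinates, and start-site windows from RefSeq on GRCh38.p14. Of the 52 genes, 25 overlap another annotated gene, 19 such neighbours were tested and 0 passed by edgeR (1 at an unadjusted p under 0.05).

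Same-numbered libraries of the groups deviated together (correlations of deviations from group means over genes of 0.107, 0.104 and 0.157), so the replicate block is given for the 52 genes where it changed a call, and by counts for other genes. Libraries of a group differed by more than sampling noise in every pair (chi-square from 2.62 to 4.36 per degree of freedom), so none was counted as a repeat deposit. Alternatives were RLE and upper quartile scaling, other filters, gene subsets, effective lengths as an offset, DESeq2 1.42.0, limma-trend on log2(TPM + 1) and log2(TPM + 0.1), the block, an adjusted p of 0.01 and leaving out each library.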

Additional observations from a re-analysis of the deposited data

How the results depend on the processing

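With effective lengths as an offset 1 gene of the list of 52 was higher and 1 was lower, as were 1 and 1 of the other pathway genes and 99 and 105 of all genes. By limma-trend on log2(TPM + 1) the counts were 1 and 1, 1 and 1, and 31 and 118, and on log2(TPM + 0.1) they were 1 and 1, 0 and 1, and 30 and 102. The share of higher among all calls was 20.8% and 22.7% in the limma-trend fits, against 52.3% in edgeR. DESeq2 called 473 of all genes lower. At an adjusted p of 0.01 the counts were 3 and 1 of the 52, 7 and 2 of the other pathway genes, and 294 and 295 of all genes. Leaving out 1 library gave 2 to 5 higher and 1 to 3 lower of the 52, 8 to 18 higher and 2 to 4 lower of the other pathway genes, and 350 to 631 higher and 357 to 625 lower of all genes, with 0 changed effective lengths each time. Among the log2 fold changes of the 52 genes under all alternatives, 835 kept their side of the threshold, 46 lost the call and 3 gained one, and no called change turned its direction. The causes were not tested. With the replicate block, 8 of the 52 were higher and 3 lower: WDR36 and DDX10 passed, and no other call among the 52 changed. In that fit 23 and 6 of the other pathway genes and 1203 (8.39%) and 1056 (7.37%) of all genes were higher and lower. With 126 counts in a library for the least counted of the 52, small changes of low genes could go unseen.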

Other observations

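Small RNA genes annotated inside the 52 genes on the same strand were read separately, because several members host snoRNAs in their introns. There were 31 such small RNA genes in 12 hosts, of which 23 were snoRNAs in WDR43, NOP56, NOP58, DKC1, NCL and GNL3. None of the 31 was high enough to test. The highest had 6 counts in a library, or 1.057 CPM. After rounding of the expected counts, 12 of them, 7 of which were snoRNAs, were at 0 in every library. SNORA36A in DKC1 was among these, with 0.71 TPM in siCTRL replicate 2 and 0.44 TPM in siMatrin3 replicate 1. The other 16 snoRNAs had rounded counts above 0 in at least 1 library, too few for a comparison of host and snoRNA.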
